A study of Mus musculus with 12 samples.

Results

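The receptors for serotonin, noradrenaline and adrenaline, dopamine, acetylcholine, histamine, oxytocin and vasopressin were examined in the cortex of CD mice, a model of Williams–Beuren syndrome, and of wild-type (WT) mice. The members were chosen by gene symbol: every protein-coding gene of the normalized count table named Htr, Adra, Adrb, Drd, Chrm, Chrna to Chrng or Hrh with its subtype number, plus Oxtr and Avpr1a. This rule found 42 of the 17202 genes in the table, of which 14749 are protein-coding, and left out 1 non-coding match, Chrna1os. The 42 genes comprise 12 serotonin, 8 adrenergic, 4 dopamine, 4 muscarinic, 9 nicotinic and 3 histamine receptor genes and the 2 genes Oxtr and Avpr1a. A further 13 protein-coding genes of the same families in the GENCODE M21 annotation had no protein-coding entry under their symbols in the normalized count table. These genes, which could not be analysed, are Adra2b, Chrm5, Chrna6, Chrna9, Chrna10, Chrnb4, Chrnd, Chrne, Chrng, Drd3, Hrh4, Htr2b and Htr3b.

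RNA was sequenced from 12 mice, 3 in each of 4 groups. VEH-WT and VEH-CD mice were wild-type mice and mice heterozygous for a deletion from Gtf2i to Fkbp6 on chromosome 5, and both received drinking water with the solvent only, although the labels call them untreated. VERCUR-WT and VERCUR-CD mice received curcumin and verapamil, a calcium channel blocker, in the drinking water. Per the labels, the daily dose was 60 mg/kg curcumin with 10 mg/kg verapamil, given for 1 month from the age of 8 weeks, and every mouse was 16 weeks old, while the methods of the study state a lower dose of verapamil and a younger age at the end. The labels name the strain C57Bl6 and the tissue cortex, and the study took frontal cortex. The study's CD colony was also crossed with Thy1-YFP mice, and whether the sequenced mice carried that transgene is not given in the sources used here. None of the 42 receptor genes lies in the deleted interval, and the 3 on chromosome 5, Htr5a, Adra2c and Drd5, lie outside it.

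Most of these receptors are G protein-coupled. Gs-coupled members such as Drd1, Drd5, Adrb1, Htr4 and Hrh2 raise cyclic AMP, Gi/o-coupled members such as Drd2, Adra2a, Htr1a and Chrm4 lower it, and Gq-coupled members such as Htr2a, Htr2c, Adra1a and Chrm1 activate phospholipase C. The nicotinic receptors and Htr3a are ligand-gated cation channels, in which subunits such as Chrna4 and Chrnb2 assemble into pentamers. In cortex they receive transmitter from long-range axons of the raphe, locus coeruleus, ventral midbrain, basal forebrain and hypothalamus, and set the excitability of pyramidal cells and interneurons. By coupling, the set held 13 Gi/o-coupled, 10 Gq-coupled and 9 Gs-coupled receptors and 10 channel subunits.

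Values are normalized counts, the reads counted on a gene divided by 1 factor per sample. Between 40287299 and 56481666 reads were counted per mouse, and 1 read was worth 0.862 to 1.20 normalized counts. All 42 genes had a mean of at least 10 over the 12 mice and were tested. The 6 deleted genes that were checked, Gtf2i, Clip2, Limk1, Eln, Stx1a and Baz1b, were lower in every CD sample than in every WT sample, at 0.432 to 0.516 of the WT mean. The summed markers of cortical excitatory neurons varied only 1.16-fold, from 123160 to 143352, and all 9 of those markers were present in every sample. The summed markers of striatal neurons, by contrast, ranged from 12343 to 51473, the oligodendrocyte sum varied 2.87-fold, and the choroid plexus sum lay between 142 and 227. Single choroid plexus markers varied more than that sum, with Ttr from 5.77 in VEH-WT 2 to 76.7 in VEH-CD 3. Clic6 ran from 4.63 in VERCUR-WT 2 to 74.2 in VERCUR-WT 3. Folr1 lay at 4.81 to 14.6, Aqp1 at 7.19 to 25.2, Kcnj13 at 21.6 to 39.2 and Kl at 52.0 to 115. In this tissue, fewer cells of a type and less RNA per cell cannot be told apart.

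Per kilobase of exon, which allows levels to be compared between genes, the highest receptor genes were Hrh3, a Gi/o-coupled receptor that restrains transmitter release, at 1999 normalized counts per kilobase, and Chrm1, the main Gq-coupled muscarinic receptor of cortical pyramidal cells, at 1843. Adra1d followed at 942 ± 90.6 (SD, n = 12), Chrm4 at 673 and Chrm3 at 610. At the other end were Chrna3 at 2.51, Chrna1, the muscle-type subunit, at 3.12, Htr4 at 3.84 and Avpr1a at 4.74. Summed over members, the muscarinic genes held 28.5% of the receptor level per kilobase, the adrenergic genes 24.1%, the histamine genes 20.5%, the serotonin genes 12.8%, the nicotinic genes 8.32%, the dopamine genes 5.35% and the oxytocin and vasopressin genes 0.485%.

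Within families the order was clear at the top and blurred lower down. Of 35 pairs of neighbours in the order of a family, 18 had ranges over the 12 mice that overlapped. Htr2a stood above every other serotonin receptor gene at 417 per kilobase, and its range did not overlap that of the next gene, Htr1a, at 201. From Htr1a down through Htr5a, Htr3a, Htr1b, Htr6, Htr7 and Htr2c, at 195, 138, 114, 111, 110 and 93.4 per kilobase for the last 6, each gene overlapped with its neighbour. Among adrenergic genes Adra1d was apart from Adra1b at 570, which overlapped with Adrb1 at 513, and Adra2c at 472 overlapped with Adrb1. Among nicotinic genes Chrna4 at 476 and Chrnb2 at 316, the subunits of the common high-affinity cortical receptor, stood apart from each other and from Chrna7, the homomeric subunit, at 72.3. Chrm1 was apart from Chrm4, and Chrm4 overlapped with Chrm3. Hrh3 was apart from Hrh1 at 211, and Hrh1 from Hrh2 at 113. Oxtr at 50.2 was apart from Avpr1a. Drd2 and Drd1 stood at 269 and 267 on average, and their ranges overlapped. The order rests on exon lengths of all annotated transcripts, and 11 of the 42 genes changed rank within their family when the longest transcript was used.

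**Figure D1:**
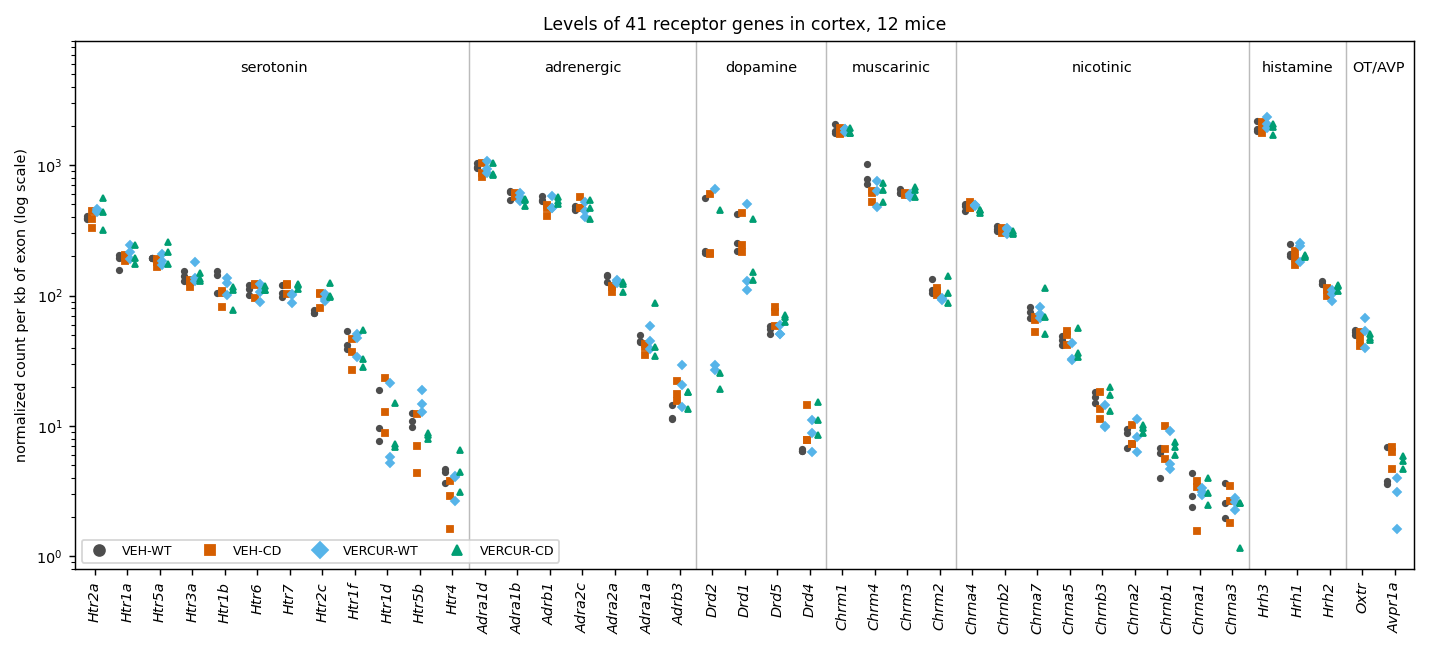
Normalized count per kilobase of exon (log axis) of 41 of the 42 receptor genes, ordered within families, with 1 point per mouse and marker shape and colour giving the group. Drd1 and Drd2 spread far more between mice than the genes around them, and Hrh3 and Chrm1 stand highest.

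The genes at the ends of the families were followed mouse by mouse. Hrh3 was at 5954, 6914 and 5799.8 in VEH-WT, at 6767, 6241 and 5563 in VEH-CD, at 6096, 7431 and 6563 in VERCUR-WT and at 6227, 5403 and 6524 in VERCUR-CD. Chrm1 was at 11408, 13321 and 11793 in VEH-WT, at 11477, 12495 and 11349 in VEH-CD, at 12184, 12218 and 11585 in VERCUR-WT and at 11526, 11517 and 12600.4 in VERCUR-CD. Adra1d was at 1842, 1965 and 1821 in VEH-WT, at 1540.2, 1962 and 1655 in VEH-CD, at 1789, 2057 and 1645 in VERCUR-WT and at 1639, 1960.5 and 1598 in VERCUR-CD. For these 3 genes every group overlapped with every other. Htr2a was at 2292, 2169.5 and 2189 in VEH-WT, at 1835, 2509 and 2169 in VEH-CD, at 2577, 2497 and 2438 in VERCUR-WT and at 1794, 3139 and 2457 in VERCUR-CD. Chrm2, the lowest muscarinic gene, was at 634, 669 and 805 in VEH-WT, at 610.1, 695 and 662 in VEH-CD, at 569, 565 and 582 in VERCUR-WT and at 532, 856 and 638 in VERCUR-CD. In both genes the VERCUR-WT mice lay close together and the VERCUR-CD mice farthest apart. Htr4 was at 17.9, 23.1 and 21.7 in VEH-WT, at 8, 18.5 and 14.4 in VEH-CD, at 20.2, 13.0 and 19.8 in VERCUR-WT and at 21.8, 32.4 and 15.4 in VERCUR-CD. Chrna3 was at 13.45, 10.4 and 19.1 in VEH-WT, at 18.3, 14.1 and 9.58 in VEH-CD, at 11.9, 14.8 and 13.8 in VERCUR-WT and at 6.11, 13.5 and 13.5 in VERCUR-CD. The groups of both low genes overlapped in every pair.

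The receptor genes varied more between mice than the average gene, in a comparison that was not matched for level. The median coefficient of variation over the 12 mice was 15.7% for the 42 genes and 10.3% for all genes tested, and the median ratio of the highest to the lowest mouse was 1.69 against 1.41. That ratio was under 1.5 for 14 members, among them Chrm1, Chrm3, Chrna4, Chrnb2, Hrh1, Hrh3, Adra1b and Adra2a. It reached 2 or more for 16, which include low genes such as Chrna3, Htr4 and Avpr1a, where few reads were counted. VERCUR-CD 2 was the highest mouse for 12 of the 42 genes, including Htr2a at 3139, Htr5a at 1373, Adra1a at 763.5 and Chrna7 at 518. The share of all genes that were highest in that mouse was not determined. Its summed normalized counts, at 50772354, were also the highest of the 12 mice. The summed astrocyte markers were also highest in that mouse, at 264321 against 150503 to 207503 in the others, and their part in these values was not tested.

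Drd2 varied 34.1-fold between mice, Drd1 4.57-fold and Htr1d 4.47-fold. Drd1 and Drd2 define the direct-pathway and indirect-pathway projection neurons of the striatum, and Htr1d is a Gi/o-coupled serotonin autoreceptor. Drd2 was at 544, 561 and 1429 in VEH-WT, at 1531, 537 and 527 in VEH-CD, at 68.8, 75.02 and 1671 in VERCUR-WT and at 1161, 64.8 and 49.1 in VERCUR-CD. Each group thus held 1 mouse far above its other two. Drd1 was at 801, 911 and 1520.1 in VEH-WT, at 1562, 879 and 782 in VEH-CD, at 471, 402 and 1839 in VERCUR-WT and at 1413, 552 and 474 in VERCUR-CD. Htr1d, a much lower gene, was at 24.7, 31.2 and 60.8 in VEH-WT, at 74.3, 28.3 and 40.7 in VEH-CD, at 16.6, 18.5 and 68.1 in VERCUR-WT and at 48.0, 23.4 and 22.1 in VERCUR-CD. The same 4 mice, 1 of each group, were highest for all 3 genes.

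Those 4 mice, which were VEH-WT 3, VEH-CD 1, VERCUR-CD 1 and VERCUR-WT 3, were also the 4 with the highest sum of 10 striatal markers, at 37660 to 51473. The other 4 VEH mice had sums of 21620 to 23715 and the other 4 VERCUR mice 12343 to 13212. Of all genes tested, 1.03% had their 4 highest samples in these 4 mice, against 3 of the 42 receptor genes. Drd2 was at 1161 to 1671 in the 4 mice, at 527 to 561 in the other VEH mice and at 49.1 to 75.02 in the other VERCUR mice. Drd1 took the levels 1413 to 1839, 782 to 911 and 402 to 552 in the same order. Among the striatal markers, Adora2a, an indirect-pathway receptor, varied 22.3-fold, Syndig1l 29.1-fold, Gpr6 11-fold, Rgs9 6.97-fold and Penk 4.78-fold between mice, and Isl1 was at 0 in VERCUR-WT 1 and VERCUR-WT 2. The ratio of Drd2 to Adora2a lay at 0.733 to 0.881 in the 4 highest mice, 0.786 to 0.970 in the other VEH mice and 0.420 to 0.692 in the other VERCUR mice. Chrm4, which striatal neurons also carry, had overlapping ranges in the 3 sets of mice, at 920 to 1126, 755 to 1478 and 687 to 937.

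**Figure D2:**
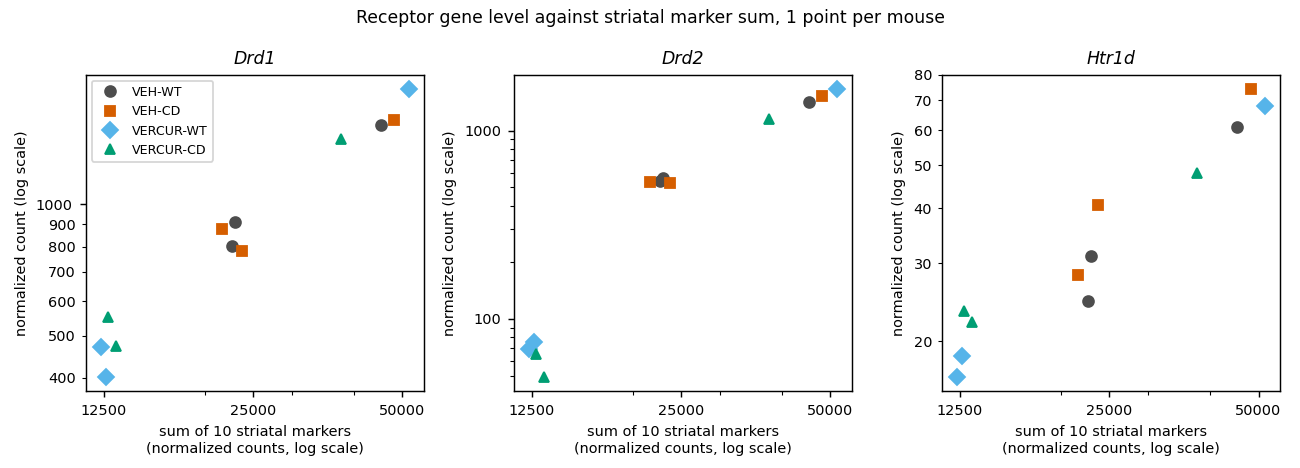
Normalized count of Drd1, Drd2 and Htr1d (log axes) against the summed normalized counts of 10 striatal markers, with 1 point per mouse and marker giving the group. In all 3 panels the 4 mice with sums of 37660 to 51473, 1 per group, are the highest, and the 4 remaining VERCUR mice, with sums of 12343 to 13212, are the lowest.

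The 3 genes whose levels moved together across mice are shown here by the 250 bases before 1 annotated start of each, from the RefSeq promoters of GRCm38.p6, written 5′ to 3′ on the strand of the gene. Capitals mark the GC box GGGCGG on either strand. Drd1 (chr13:54054781-54055030, minus strand) is the nearer of 2 starts to the coding sequence, Drd2 (chr9:49340153-49340402, plus strand) has 1 start in the table, and Htr1d (chr4:136423274-136423523, plus strand) is the upstream one of 2.
Drd1: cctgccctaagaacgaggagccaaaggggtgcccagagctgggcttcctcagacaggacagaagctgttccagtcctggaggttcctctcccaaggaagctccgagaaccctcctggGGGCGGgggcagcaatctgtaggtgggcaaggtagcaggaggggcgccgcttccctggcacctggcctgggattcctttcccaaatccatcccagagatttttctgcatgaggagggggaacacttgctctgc
Drd2: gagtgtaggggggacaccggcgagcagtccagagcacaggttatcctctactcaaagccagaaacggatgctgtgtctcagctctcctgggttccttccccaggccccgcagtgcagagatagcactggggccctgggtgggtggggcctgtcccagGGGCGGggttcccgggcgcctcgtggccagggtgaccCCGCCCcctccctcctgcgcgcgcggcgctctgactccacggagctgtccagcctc
Htr1d: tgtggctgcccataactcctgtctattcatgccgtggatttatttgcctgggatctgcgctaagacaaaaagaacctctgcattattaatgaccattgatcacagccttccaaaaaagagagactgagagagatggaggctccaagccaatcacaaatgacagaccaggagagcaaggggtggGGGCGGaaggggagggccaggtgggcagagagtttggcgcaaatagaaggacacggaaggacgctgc

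The Drd1 window held 1 GC box, the Drd2 window 2 and the Htr1d window 1, and their GC contents were 60.8%, 68.8% and 51.6%, beside a median of 60.8% for the receptor promoters and 52.4% for all promoters. The other start of Drd1, which is not printed, held 0 GC boxes at a GC content of 64%, and that of Htr1d held 3 at 72.4%. Promoters were found for 32 of the 42 receptor genes, 41 in all. A GC box in the 300 bases from 250 before to 50 after the start was present in 68.3% of receptor promoters and 35.7% of all 32851 promoters. A TATA box (TATAAA) was in 7.32% against 13.6%, an E-box (CACGTG) in 9.76% against 7.15%, and the cyclic AMP element TGACGTCA in 0 of 41 against 1.79%. All motifs were searched on both strands, and a match is a description of the letters.

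Whether the deletion changes these receptors under vehicle was asked by comparing VEH-CD with VEH-WT. No receptor gene passed limma's test (adjusted p under 0.05 by Benjamini-Hochberg over all genes tested, and a fold change past the limits the study used), while 0.257% of all 17111 genes did. At an unadjusted p under 0.05 stood 8 of the 42, or 19.0%, against 11.8% of all genes, and 9 of the 42 (21.4%) had groups that did not overlap, against 20.6%. The 95% interval of a difference had a median half-width of 0.34 on the log2 scale, and the median log2 fold change was -0.04. The summed interneuron markers were also lower in VEH-CD, at 44515 to 46771 against 49344 to 52598. Singly, Gad1, Gad2, Lamp5 and Lhx6 were lower in every VEH-CD mouse than in every VEH-WT mouse. Pvalb, Sst, Vip and Adarb2 overlapped. The part of these markers in the values that follow was not tested.

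The serotonin receptor gene Htr2c, whose Gq-coupled product restrains dopamine and noradrenaline neurons, was at 688, 685 and 724 in VEH-WT and at 981, 955 and 751 in VEH-CD. Every VEH-CD mouse was above every VEH-WT mouse, and the log2 fold change was 0.35 ± 0.11 (SE), with an adjusted p of 0.261 in limma. Adra2a, the Gi/o-coupled receptor that clonidine and guanfacine act on, was at 610, 692 and 687 in VEH-WT and at 519, 572 and 562 in VEH-CD. Its groups did not overlap, and the log2 fold change was -0.26 ± 0.09 (SE; limma, adjusted p = 0.261). Chrm4, the Gi/o-coupled muscarinic receptor, was at 1037, 1478 and 1126 in VEH-WT and at 920, 886 and 755 in VEH-CD. The 3 VEH-CD values were the lower ones, and limma gave a log2 fold change of -0.50 ± 0.18 (SE) with an adjusted p of 0.304.

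Adrb1, the main cortical Gs-coupled beta receptor, was at 1788, 1967 and 1825 in VEH-WT and at 1386, 1674 and 1593 in VEH-CD, again with no overlap and a log2 fold change of -0.27 ± 0.10 (SE; limma, adjusted p = 0.312). The histamine receptor Hrh2 was at 729, 767 and 723 in VEH-WT and at 586, 678 and 656 in VEH-CD. Its log2 fold change was -0.21 ± 0.09 (SE), with an adjusted p of 0.376 in limma. Drd4, a low Gi/o-coupled dopamine receptor gene, was at 22.4, 21.9 and 21.7 in VEH-WT and at 26.3, 26.5 and 49.1 in VEH-CD, where a single mouse made up most of a log2 fold change of 0.54 (limma, adjusted p = 0.503). Adra1a and Htr5a were the other members without overlap. Both had their 3 lower values in VEH-CD.

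Adrb3, a Gs-coupled receptor best known from adipose tissue, was at 39.2, 38.1 and 48.7 in VEH-WT and at 59.4, 75.1 and 52.7 in VEH-CD. The log2 fold change was 0.55 ± 0.25 (SE), with no overlap and an adjusted p of 0.416 in limma. The study lists this gene as deregulated, from a general linear model and Wald test after a correction by coefficient of variation, unlike the fit here. Its table was picked on these same samples, so the direction of Adrb3 there is not independent evidence. Of its exon bases, 24.9% overlap Gm45470 on the opposite strand, which had 41.4 to 96.2 normalized counts per sample, and whether the counting used the strand is not given in the sources used here.

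By family, the VEH-CD against VEH-WT medians were -0.13 for the adrenergic, -0.08 for the serotonin and muscarinic, -0.17 for the histamine, -0.03 for the nicotinic and 0.18 for the dopamine genes on the log2 scale, and none of these was tested. The abundant genes had narrow intervals. Chrm1, at 11408 to 13321 in VEH-WT and 11349 to 12495 in VEH-CD, had a 95% interval of -0.19 to 0.10, and Hrh3, at 5799.8 to 6914 and 5563 to 6767, one of -0.23 to 0.21. Chrm3, at -0.20 to 0.08, was bounded as closely. For Drd2 the interval ran from -2.71 to 2.70 and for Drd1 from -1.18 to 1.15, so that a 2-fold difference of either gene would not have been detectable.

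**Figure D3:**
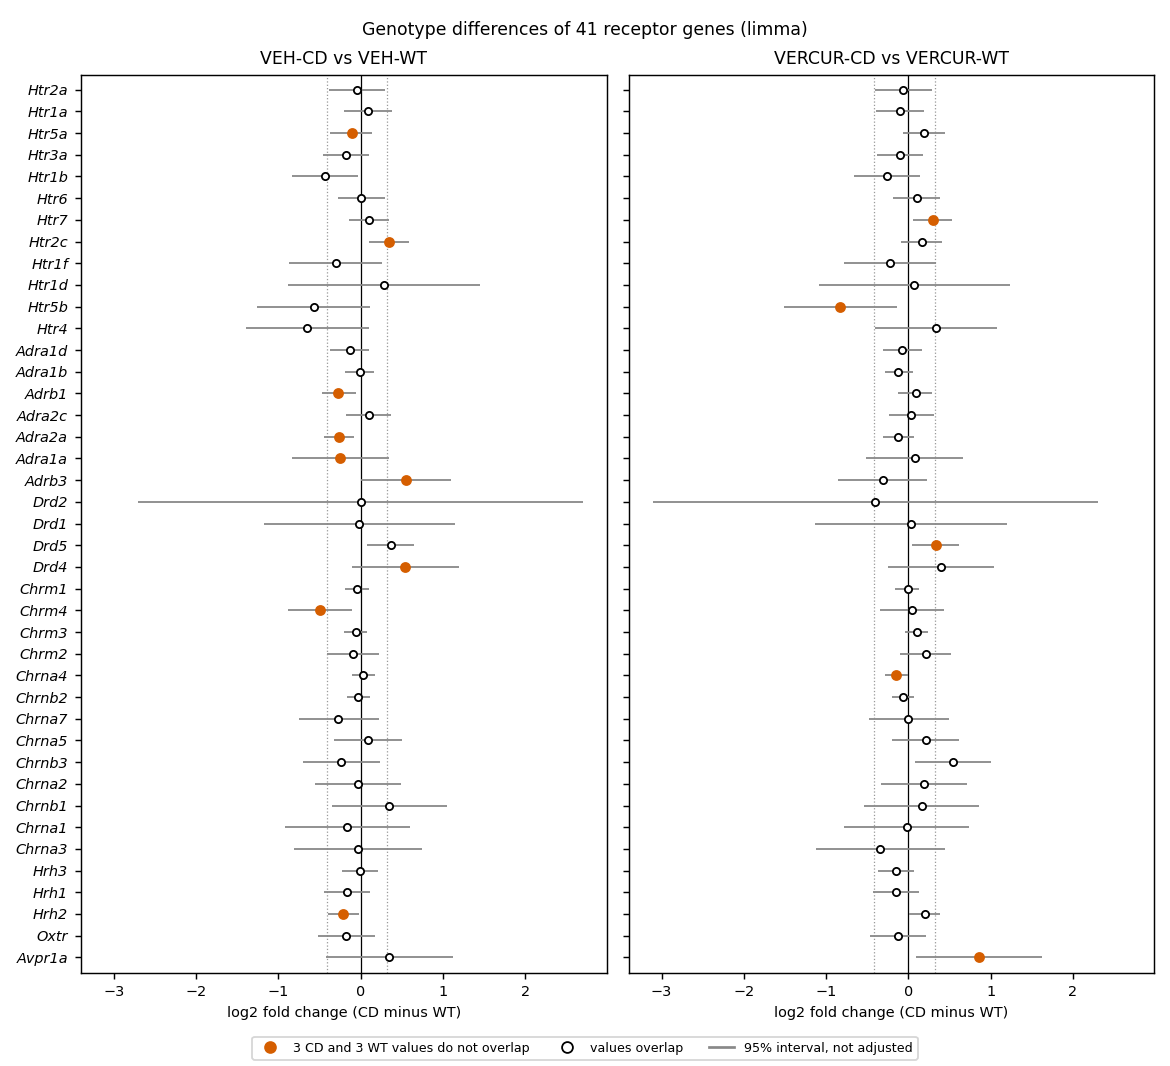
Log2 fold change, CD minus WT, of 41 of the 42 receptor genes under vehicle (left) and under co-treatment (right), with unadjusted 95% intervals from limma. Filled points mark genes whose 3 CD and 3 WT values do not overlap, 9 on the left and 5 on the right, and dotted lines mark the fold change limits of a call. The interval of Drd2 is the widest in both panels.

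Under co-treatment, VERCUR-CD was compared with VERCUR-WT to ask whether the genotype difference is present in treated mice. No receptor gene was called by limma, against 0.146% of all genes. An unadjusted p under 0.05 was reached by 7 members, or 16.7%, against 4.10% of all genes, and 5 members (11.9%) had groups that did not overlap, against 7.74%. All adjusted p values of members were 1.00 in limma.

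Htr7, a Gs-coupled serotonin receptor gene, was at 343, 348 and 296 in VERCUR-WT and at 381, 421 and 409 in VERCUR-CD, a log2 fold change of 0.30 ± 0.11 (SE) without overlap. Under vehicle its 3 CD values, 407, 351 and 419, overlapped with the WT values of 412, 333 and 354. Htr5b, a low Gi/o-coupled gene, was at 36.8, 28.7 and 25.01 in VERCUR-WT and at 16.6, 17.1 and 15.4 in VERCUR-CD, a log2 fold change of -0.83 ± 0.32 (SE). Under vehicle it was at 21.3, 24.2 and 19.1 in WT and at 13.7, 23.8 and 8.39 in CD. All 3 VERCUR-WT mice were above the 9 other mice for this gene. The closest values, 25.01 in VERCUR-WT 3 and 24.2 in VEH-WT 2, were less than 1 read apart. In these mice 1 read was worth 0.862 and 1.15 normalized counts. Htr5b was the 1 member of 42 for which VERCUR-WT stood apart in either direction, against 0.438% of all genes.

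Chrnb3, a nicotinic subunit gene near Adrb3 on chromosome 8, was at 95.3, 106 and 116 in VEH-WT, at 85.7, 71.5 and 116 in VEH-CD, at 64.1, 63.0 and 92.3 in VERCUR-WT and at 83.8, 127 and 110 in VERCUR-CD. The VERCUR-CD and VERCUR-WT values overlapped, with a log2 fold change of 0.54 ± 0.22 (SE). Chrna4 was at 2484, 2506 and 2458 in VERCUR-WT and at 2144, 2284 and 2285 in VERCUR-CD, so that the groups did not overlap although the log2 fold change was only -0.15. Under vehicle Chrna4 was at 2432, 2525 and 2226 in WT and at 2354, 2634 and 2351 in CD, which overlapped. Avpr1a, the vasopressin receptor gene known for social behavior, had a log2 fold change of 0.86 ± 0.35 (SE) without overlap, but rested on 10.7, 8.34 and 4.31 normalized counts in VERCUR-WT and on 15.7, 14.4 and 12.5 in VERCUR-CD. Under vehicle Avpr1a was at 10.1, 18.5 and 9.56 in WT and at 12.6, 18.5 and 16.8 in CD.

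Oxtr, the oxytocin receptor gene, gave little sign of a group difference in any comparison. It was at 253, 262 and 241 in VEH-WT, at 197, 224 and 250 in VEH-CD, at 322, 257 and 191 in VERCUR-WT and at 225, 220.3 and 244 in VERCUR-CD. Its log2 fold change was -0.18 under vehicle (95% interval -0.52 to 0.17) and -0.12 under co-treatment (-0.47 to 0.22).

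Over both treatments, CD mice were set against WT mice, 6 against 6. No member was called by limma, against 0.321% of all genes, 8 members (19.0%) had an unadjusted p under 0.05 against 9.64%, and none had groups without overlap against 1.05%. Drd5, the Gs-coupled D5 receptor gene, gave the smallest p of the members. It was at 184, 174 and 159.9 in VEH-WT, at 183, 234 and 258 in VEH-CD, at 161, 161 and 187 in VERCUR-WT and at 216, 225 and 198 in VERCUR-CD. The log2 fold change was 0.35 ± 0.09 (SE), or 1.27-fold, with an adjusted p of 0.222 in limma, and the CD values were higher in both treatments on average. Of the Drd5 exon bases, 48.6% overlap Gm26560 on the opposite strand, which had 7.06 to 18.99 normalized counts per sample. Htr5b had a log2 fold change of -0.70 ± 0.22 (SE; limma, adjusted p = 0.315), Htr2c 0.25 ± 0.08 (adjusted p = 0.306 in limma) and Adra2a -0.19 ± 0.06 (adjusted p = 0.313 in limma). For Adra2a the values under co-treatment were 633, 608 and 626 in VERCUR-WT and 514, 598 and 611 in VERCUR-CD, which overlapped. Htr1b, Htr7, Avpr1a and Drd4 also stood under an unadjusted p of 0.05, with log2 fold changes of -0.35, 0.20, 0.61 and 0.47.

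**Figure D4:**
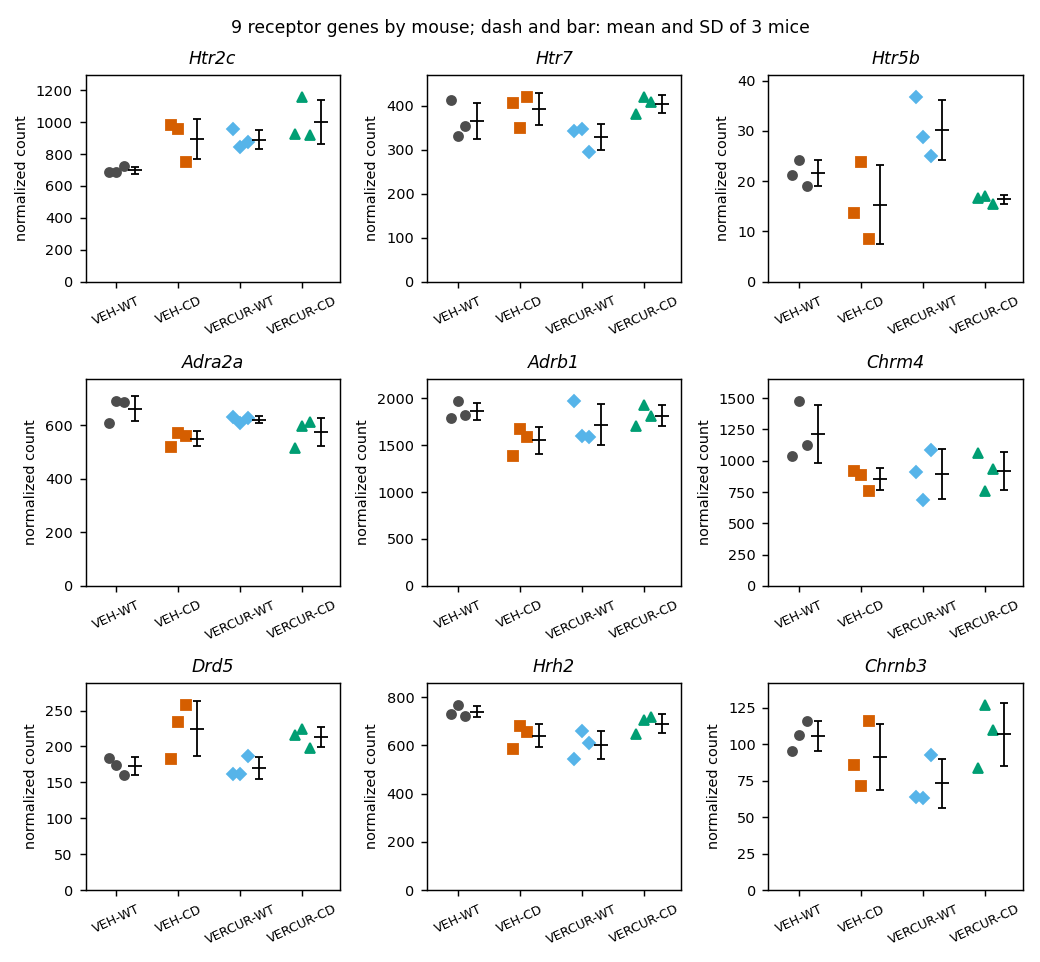
Normalized counts of 9 receptor genes by group, with 1 point per mouse and the mean and SD of 3 mice at the right of each group; the axes start at 0. Htr2c is lowest and Hrh2 highest in the 3 VEH-WT mice, and Drd5 has higher group means in CD than in WT mice under both treatments.

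Co-treatment was compared with vehicle within each genotype. In CD mice no member and no other gene (0%) was called by limma. Only 2 members (4.76%) reached an unadjusted p under 0.05, against 3.54% of all genes, and 3 (7.14%) had groups that did not overlap, against 8.34%. Adrb1 was at 1707, 1931 and 1810.2 in VERCUR-CD, all above the VEH-CD values of 1386, 1674 and 1593, a log2 fold change of 0.23 ± 0.10 (SE; limma, adjusted p = 0.867). Adra1b, a Gq-coupled adrenergic receptor gene, was at 1833, 1849 and 1636 in VERCUR-CD and at 1990.3, 1922 and 2088 in VEH-CD, a log2 fold change of -0.18 ± 0.08 (SE; limma, adjusted p = 0.867). Among WT mice Adra1b was at 2129.6, 2091 and 1845 in VEH-WT and at 1783, 2070.04 and 1912 in VERCUR-WT, and Adrb1 at 1973, 1600.5 and 1583 in VERCUR-WT. For both genes the 2 WT groups overlapped. Chrna4 was the third gene without overlap in CD mice, at -0.13.

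In WT mice limma again called no member and no other gene (0%). An unadjusted p under 0.05 was reached by 5 members (11.9%), against 5.22% of all genes, and 7 (16.7%) had groups that did not overlap, against 9.72%. Hrh2 was at 542, 658 and 608 in VERCUR-WT, below every VEH-WT value, a log2 fold change of -0.30 ± 0.09 (SE; limma, adjusted p = 0.944). Htr2c was at 954, 845 and 873 in VERCUR-WT, above every VEH-WT value, and its log2 fold change of 0.35 ± 0.11 (SE) had an adjusted p of 0.944 in limma. Adrb3 was at 70.0, 100.03 and 47.4 in VERCUR-WT and at 61.1, 45.9 and 61.6 in VERCUR-CD, and against VEH-WT the former gave a log2 fold change of 0.72 ± 0.25 (SE; limma, adjusted p = 0.944) with values that overlapped. Chrm4 was at 908, 687 and 1088 in VERCUR-WT and at 1058, 756 and 937 in VERCUR-CD. Against VEH-WT, Chrm4 in VERCUR-WT overlapped and Chrnb3 was below every VEH-WT value, with log2 fold changes of -0.45 and -0.54. Chrm2, Chrm3, Htr2a and Htr5b completed the members without overlap.

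For Htr2c and Hrh2 the VEH-WT mice stood apart from all 9 others. For Htr2c the 3 VEH-WT values of 685 to 724 were below 751, the lowest of the rest, and for Hrh2 the values of 723 to 767 were above 718, the highest of the rest. These were 2 of the 42 members (4.76%), against 2.40% of all genes. No member set VEH-CD or VERCUR-CD apart from the other mice, against 1.23% and 0.707% of all genes. The summed interneuron markers, at 49344 to 52598 in VEH-WT, were likewise above the 44515 to 48175 of all other mice. Among the single markers only Gad1 stood apart in this way, at 15179 to 16987 in VEH-WT and at most 14843 elsewhere. Gad2, Pvalb, Sst, Vip, Lamp5, Lhx6 and Adarb2 overlapped. The part of these markers was not tested.

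VERCUR-CD was also compared with VEH-WT, to ask how far treated CD mice are from control values. No member was called by limma, against 0.199% of all genes. An unadjusted p under 0.05 was reached by 7 members (16.7%) against 8.68%, and 5 (11.9%) had groups that did not overlap against 13.9%. Htr2c, at 923, 1159 and 918 in VERCUR-CD, had the smallest p of any member in any comparison, with a log2 fold change of 0.51 ± 0.11 (SE), or 1.42-fold, and an adjusted p of 0.182 in limma. Drd4 was at 37.5, 28.8 and 52.0 in VERCUR-CD, beside 29.7, 21.3 and 37.95 in VERCUR-WT, and against VEH-WT the former gave a log2 fold change of 0.77 ± 0.30 (SE; limma, adjusted p = 0.497), and Drd5 had 0.30 (limma, adjusted p = 0.562). The comparisons with VEH-WT share the same 3 control mice, so their values are not independent of each other.

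Over both genotypes, 6 VERCUR mice against 6 VEH mice, no member and no other gene (0%) was called by limma. An unadjusted p under 0.05 was reached by 3 members (7.14%) against 2.96%, and no member had groups without overlap, against 0.0760% of all genes. These were Htr2c, with a log2 fold change of 0.25 ± 0.08 (SE), Adra1b with -0.12 and Drd2 with -2.08 ± 0.88 (SE), each with an adjusted p of 1.00 in limma. Drd2 had means of 515 in VERCUR and 855 in VEH mice. Without the 4 mice of highest striatal marker sum, a set chosen after the sums were seen, limma called Drd2 with a log2 fold change of -3.07 (adjusted p = 7.82e-06) and Drd1 with -0.83 (adjusted p = 0.00881). Those were 2 of the 42 members (4.76%), against 0.169% of all genes called without these mice. In those 8 mice the striatal sums differed the same way without overlap, 12343 to 13212 in VERCUR against 21620 to 23715 in VEH, so that treatment and striatal content cannot be told apart. With the log2 striatal sum as a covariate over all 12 mice, the difference was -0.80 for Drd2 and 0.02 for Drd1, each with an adjusted p of 1.00 in limma. Over 23 alternative settings the Drd2 difference lay between -3.07 and -0.80, with adjusted p values in limma of 6.45e-09 to 1.00, and the Drd1 difference between -0.88 and 0.02, with 0.000191 to 1.00.

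The interaction asked whether the genotype difference itself depends on treatment. No member and no other gene (0%) passed an adjusted p of 0.05 in limma, and 5 members (11.9%) had an unadjusted p under 0.05, against 6.05% of all genes. Hrh2 had the smallest p, with a genotype difference that was 0.41 ± 0.12 (SE) higher on the log2 scale under co-treatment than under vehicle (limma, adjusted p = 0.816). Its VERCUR-CD values were 647, 706 and 718, beside 542, 658 and 608 in VERCUR-WT. The other 4 were Adrb1 at 0.35, Chrnb3 at 0.78, Chrm4 at 0.54 and Adrb3 at -0.86, each with an adjusted p of 0.816 in limma.

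Of the 42 receptor genes, 21 had neither an unadjusted p under 0.05 nor groups without overlap in any comparison, and all but 1 of these are described by the lowest, median and highest of the 12 mice or by their values above. Among the more abundant, Chrnb2 lay at 2467, 2661 and 2869, Adra2c, a presynaptic Gi/o-coupled receptor gene, at 1324, 1614 and 1954, and Hrh1, the Gq-coupled target of sedating antihistamines, at 762, 901 and 1130.0. Among the serotonin receptor genes, Htr1a, the Gi/o-coupled autoreceptor and pyramidal cell receptor, lay at 710.1, 888 and 1104, Htr3a, the channel subunit of a class of interneurons, at 242, 277 and 377, Htr6 at 207, 261 and 288, and Htr1f at 69.7, 104 and 141. The nicotinic genes spread more, with Chrna7 at 230.3, 310.2 and 518, Chrna5 at 99.7, 133 and 176, Chrna2 at 23.7, 33.6 and 42.6, Chrnb1 at 10.1, 16.2 and 25.1 and Chrna1 at 6.86, 13.6 and 19.1. Of the Chrnb2 exon bases, 16.3% overlap Adar, an RNA editing enzyme gene, on the opposite strand, which had 9476 to 11400 normalized counts per sample, and the strand setting of the counting is not given in the sources used here. Chrm1, Hrh3, Adra1d, Htr4, Chrna3, Drd1, Htr1d and Oxtr were described above.

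The other genes of these pathways were taken from lists drawn up by role. Of the genes for ligand synthesis, transport and breakdown, 18 of 26 listed were tested, and 0 were called in any of the 8 comparisons. The smallest p of this list came from Slc29a4, a plasma membrane monoamine transporter, over both treatments, with a log2 fold change of -0.32 ± 0.09 (SE; limma, adjusted p = 0.240) and 208 to 236 normalized counts in VEH-CD against 256 to 298 in VEH-WT. Maoa, which breaks down serotonin and noradrenaline, had 0.22 ± 0.07 (SE) in VERCUR-CD against VEH-WT (limma, adjusted p = 0.410). Of the G proteins and effectors, 37 of 38 were tested and 0 were called. The genotype difference of Gnai3, an inhibitory G protein subunit, was 0.38 ± 0.11 (SE) higher under co-treatment (limma, adjusted p = 0.816).

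Of the kinases, arrestins and RGS proteins that end receptor signalling, 19 of 21 were tested and 0 were called, with Rgs16, an activator of Gi and Gq hydrolysis, at -0.43 ± 0.14 (SE) in VEH-CD against VEH-WT (limma, adjusted p = 0.259). Of the nicotinic receptor chaperones and prototoxins, 9 of 10 were tested and 0 were called, with Ly6e at -0.19 in VERCUR-CD against VEH-WT (limma, adjusted p = 0.554). In VEH-CD against VEH-WT, the shares of the 4 lists at an unadjusted p under 0.05 were 5.56%, 5.41%, 21.1% and 0%, against 11.8% of all genes. Rgs9, Ppp1r1b and Pde10a are on these lists and are also 3 of the 10 striatal markers.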

How the data were processed

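RNA-seq libraries came from the cortex of 12 mice, 3 per group. Reads were aligned by the authors to GRCm38 with STAR 2.5.3a and deposited as normalized counts, reads counted per gene divided by 1 factor per sample. The counting tool, its strand setting and the annotation are not given in the sources used here. Decimals are written with commas in the deposited table. The low values in every sample were whole multiples of 1 step, which gave a depth of 40287299 to 56481666 counted reads per mouse. All value columns matched 1 sample each.

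Here, log2(normalized count + 1) was modelled with limma 3.58.1 (R 4.3.3), using an intensity trend, over the 17111 genes with a mean of at least 10, with all 12 mice and 4 group means. P values were two-sided and Benjamini-Hochberg adjusted over all genes tested. A call needed an adjusted p under 0.05 together with a fold change above 1.25 or below 0.75. For the interaction the adjusted p alone decided. Fold changes are on the log2(value + 1) scale and understate those of low genes. The fit was tested on simulated counts with the same dispersion for every gene. It called 95.0% of the genes changed by 1 on the log2 scale and 67.7% of those changed by 0.6. The spread of the receptor genes between mice was not simulated. Positions and exon lengths come from GENCODE M21, promoters from RefSeq. The samples are labelled as separate mice.

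Members, lists and tests were chosen with earlier results of these data known. The values of 1 member are not reported here, although it is included in the counts. Values of every mouse are given for members called in any comparison, for the 3 members of smallest p without overlap in each comparison of groups, for Adrb3, Oxtr and Avpr1a, and for the extremes of each family; Drd1, Htr1d and other members were added after their values were seen. Alternatives were other pseudocounts, filters and normalizations, fits of the compared groups, no trend, the replicate number as a block, dropping the most distant value in groups with a CV of 20% or more, and leaving out each mouse. Leaving out 4 mice by striatal markers, and those markers as a covariate, were added after seeing the data.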

Additional observations from a re-analysis of the deposited data

How the results depend on the processing

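No receptor gene was called in any of the 8 comparisons under other pseudocounts, filters, normalizations, the fit of the compared groups, the fit without a trend, the adjusted p alone, or when any single mouse was left out, where the count ranged from 0 to 0. The planned count tests on recovered reads were not run. Removing the value farthest from the median gave calls in every comparison: 2 in VEH-CD against VEH-WT (Chrm4, Htr5b), 2 in VERCUR-CD against VERCUR-WT (Chrnb3, Htr5b), 2 in VERCUR-CD against VEH-CD (Drd1, Drd2), 3 in VERCUR-WT against VEH-WT (those and Chrnb3), 3 in VERCUR-CD against VEH-WT (Drd1, Drd2, Htr2c), 3 in CD against WT (Avpr1a, Drd5, Htr5b), 2 in VERCUR against VEH (Drd1, Drd2) and 1 in the interaction (Chrnb3). This alternative takes out the value that widens the spread, and it also called 1.41% to 5.68% of all genes, against 2.38% to 7.14% of the members. In VEH-CD against VEH-WT and in the interaction the share of all genes was the higher one, at 5.68% and 2.88%. Without the 4 mice of highest striatal marker sum, 1 was called in VERCUR-CD against VEH-CD and 1 in VERCUR-CD against VEH-WT, both Drd2, and 2 in VERCUR-WT against VEH-WT and 2 in VERCUR against VEH, both Drd1 and Drd2, while 0.0701% to 0.205% of all genes were called in these 4 comparisons. With the striatal sum as a covariate the count was 0 throughout. Over the 4 pathway lists, 16 counts moved from 0 to at most 4 when the farthest value was removed, and 5 moved to 1 (Rgs9 or Ppp1r1b) without the 4 mice.

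The replicate number as a block left 0 receptor genes called in each comparison. Deviations of same-numbered mice correlated at -0.35 to 0.27, with 4 of 18 pairs over 0.1. Those of mice with different numbers correlated at -0.23 to 0.32, with 9 of 36 pairs over 0.1. Whether same-numbered mice shared a litter or a preparation is not given in the sources used here.

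At an unadjusted p under 0.05, the 8 members of VEH-CD against VEH-WT became 3 without VEH-WT 2 and 5 when VEH-CD 1, VEH-CD 3 or VEH-WT 3 was left out. The 7 of VERCUR-CD against VERCUR-WT became 2 without VERCUR-CD 2, 3 without VERCUR-CD 3 or VERCUR-WT 1 and 4 without VERCUR-WT 2. The 7 of VERCUR-CD against VEH-WT became 2 without VEH-WT 2 and 3 when VERCUR-CD 3 or VEH-WT 3 was left out. The 2 of VERCUR-CD against VEH-CD became 8 without VERCUR-CD 1, 4 without VEH-CD 2, 1 without VERCUR-CD 3 and 0 without VEH-CD 1. The 5 of VERCUR-WT against VEH-WT became 8 without VERCUR-WT 3 and 3 without VEH-WT 2 or VERCUR-WT 2. The 8 of CD against WT became 4 without VEH-CD 3 and 5 without VEH-WT 3. The 3 of VERCUR against VEH became 6 without VERCUR-WT 3, 5 without VERCUR-CD 1 and 1 without VERCUR-WT 1 or VERCUR-CD 3. The 5 of the interaction became 1 without VERCUR-WT 2 and 3 when VEH-CD 2, VEH-WT 2 or VEH-WT 3 was left out. Removing the farthest value raised these counts, in the same order, to 13, 14, 15, 10, 11, 12, 9 and 7. The lowest counts under settings that kept the mice and the values were 6, 4, 3, 1, 5, 5, 1 and 4, and without the 4 striatal mice they were 3, 6, 7, 3, 8, 5, 7 and 4.

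In VEH-CD against VEH-WT the log2 fold change changed sign for members near 0. Under quantile normalization it was 0.03 for Drd2, 0.01 for Hrh3 and 0.00 for Htr2a. Removal of the farthest value gave 0.41 for Chrna3. Leaving out single mice gave ranges of -0.51 to 0.45 for Drd2 (above 0 without VEH-WT 3, at 0.24 without VEH-CD 2 and at 0.26 without VEH-CD 3), -0.07 to 0.07 for Hrh3 (above 0 without VEH-WT 2 or VEH-CD 3), -0.09 to 0.02 for Chrm1 (above 0 without VEH-WT 2), -0.15 to 0.07 for Htr2a (above 0 without VEH-CD 1), -0.16 to 0.01 for Chrm2 (above 0 without VEH-WT 3), -0.24 to 0.20 for Chrna3 (0.18 without VEH-WT 3) and -0.02 to 0.07 for Chrna4 (below 0 without VEH-WT 3 or VEH-CD 2). Without the 4 striatal mice Htr2a was at 0.07 and Chrm2 at 0.06. By longest transcript, 11 genes changed rank within a family. The cause was not tested for any of these changes. Low genes such as Chrna3 and Avpr1a rest on few reads, which limits their precision.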
